A study of Sus scrofa with 14 samples.

Results

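Matrix metalloproteinases (MMPs) and their tissue inhibitors (TIMPs) were followed in the pig mammary gland from late pregnancy through lactation into involution. The genes were given as a list of names, with no threshold on their values: MMP2, MMP7, MMP8, MMP9, MMP14, MMP27, TIMP1, TIMP2 and TIMP3. Of these 9 names, 8 were found as gene symbols in the count tables, out of 30071 gene identifiers in all, and TIMP2 was not found under its symbol and has no value here. The files give MMP2 as ENSSSCG00000002829, MMP7 as ENSSSCG00000014982, MMP8 as ENSSSCG00000029675, MMP9 as ENSSSCG00000007436, MMP14 as ENSSSCG00000002039, MMP27 as ENSSSCG00000014984, TIMP1 as ENSSSCG00000012277 and TIMP3 as ENSSSCG00000031866. The glands came from multiparous sows at 5 stages, day 90 of gestation (G90), day 0 (L0) and day 20 (L20) of lactation, and 2 days (PI2) and 7 days (PI7) after natural involution, with 2 glands a stage profiled by single-nucleus RNA-seq. Single tissue sections of G90 and PI2 were profiled by Visium spatial transcriptomics, and single libraries of L0 and L20 milk cells by single-cell RNA-seq. The labels name mammary gland as the tissue of the milk libraries too, and give neither breed nor age.

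MMPs are zinc proteases that cut collagens, laminins and other matrix proteins, and also shed or activate proteins at the cell surface. TIMPs bind and block the active site of MMPs, and TIMP3 stays attached to the matrix while TIMP1 is freely secreted. MMP2 and MMP9 are the gelatinases, MMP7 is a matrilysin made by epithelia, MMP8 is the collagenase stored in neutrophil granules, MMP14 is a membrane-bound MMP that activates the MMP2 proenzyme, and MMP27 is a less studied relative of the stromelysins. In the mammary gland this system is known from branching of the ducts and from the dismantling of the basement membrane when milk removal ends.

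By the RefSeq annotation of Sscrofa11.1, the build named in the labels, MMP7, MMP27 and MMP8 lie on the minus strand of chromosome 9, inside the MMP cluster. MMP7 spans 33214590 to 33225080, MMP27 spans 33366342 to 33379828 and MMP8 spans 33384034 to 33397637, so that 4205 bases separate MMP27 from MMP8. The other members are scattered: MMP2 on chromosome 6 (30059247 to 30087031), MMP14 on chromosome 7 (76174502 to 76185931), MMP9 on chromosome 17 (48179690 to 48186782), TIMP3 on chromosome 5 (12185816 to 12242599) and TIMP1 on the X chromosome (42103251 to 42106289). The promoters of the gelatinases MMP2 and MMP9 are shown because the means of these related enzymes were highest in different cell classes (MMP2 in fibroblasts, MMP9 in macrophages). Each runs from 250 bases before the RefSeq start to 50 bases after it and reads 5′ to 3′ on the gene's strand. MMP2 is at chr6:30086982-30087281 (minus strand) and MMP9 at chr17:48179440-48179739 (plus strand). Capitals mark matches to AP-1 (TGANTCA), the GC box (GGGCGG) and PEA3 (AGGAAG), each searched on both strands; the TATA box (TATAAA) was searched on the gene's strand.
MMP2: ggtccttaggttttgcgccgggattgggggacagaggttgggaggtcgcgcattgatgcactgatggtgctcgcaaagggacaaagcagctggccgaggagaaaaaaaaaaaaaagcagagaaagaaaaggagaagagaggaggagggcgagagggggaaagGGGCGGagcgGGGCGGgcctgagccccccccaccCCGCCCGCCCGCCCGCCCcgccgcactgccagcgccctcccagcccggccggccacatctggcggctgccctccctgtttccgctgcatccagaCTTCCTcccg
MMP9: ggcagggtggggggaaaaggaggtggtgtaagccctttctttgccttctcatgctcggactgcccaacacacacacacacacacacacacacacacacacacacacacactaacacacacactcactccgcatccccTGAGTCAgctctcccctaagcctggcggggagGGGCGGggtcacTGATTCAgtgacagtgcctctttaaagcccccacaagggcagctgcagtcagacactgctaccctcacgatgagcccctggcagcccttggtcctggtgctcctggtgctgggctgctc

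MMP9 held 2 AP-1 matches, at 113 and 69 bases before the start. Over the 20599 annotated promoters of the same length, 6.31% held such a match. The MMP2 promoter held 6 GC-box matches, some of them overlapping, TIMP3 held 4, MMP14 held 2 and MMP9 held 1, against 49.0% of all promoters with at least 1. The windows at the RefSeq starts of MMP8 and TIMP1 were among those that held none of the 4 motifs. Whether transcription begins at these annotated starts was not tested, so this does not describe their promoters. The share of G and C was 31.0% for MMP7 and 66.0% for MMP2. No TATA box was found in the promoters of MMP2 and MMP9 (7.40% of all promoters hold one). These matches describe letters in a window and no binding was measured.

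The 10 gland libraries held 126833 nuclei after removal of those under 300 genes or over 25% mitochondrial UMIs (unique molecular identifiers, each counting 1 captured transcript). They carried 18700704 to 53161349 UMIs a gland, at a median of 1382 to 2496 UMIs a nucleus. The sections held 42815421 UMIs (G90) and 17906403 UMIs (PI2), and the milk libraries 80995806 UMIs (L0) and 42948881 UMIs (L20). Among 66 pairs of gland or milk libraries, at most 284 barcodes were shared (1.52% of the smaller library). Nuclei were gated to 11 cell classes by lists of 10 marker genes that contain no member, of which 6 were found for neutrophils, 8 for myoepithelium, and 9 each for lymphatic endothelium and adipocytes. In their own class the lists summed to 7635 to 16585 CPM (UMI counts scaled to a total of 1e+06) for fibroblasts, 2798 to 7370 CPM for luminal epithelium and 3486 to 6875 CPM for macrophages. The luminal list still summed to 221 to 1204 CPM in fibroblast nuclei, and the fibroblast list to 41.8 to 347 CPM in luminal nuclei. The 2 glands of a stage could differ in makeup, as at L20 and PI2. L20 replicate 2 held 10.5% luminal and 29.9% fibroblast nuclei against 54.6% and 6.63% in L20 replicate 1. PI2 replicate 2 held 1.67% fibroblast nuclei against 11.6% in PI2 replicate 1.

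In sums over all nuclei of a gland, all 8 members had their lowest stage mean of CPM at L0, and the 2 sows of a stage often lay far apart. CPM is scaled to the UMI total alone. In the edgeR fit below, which adds TMM normalization factors, MMP14 instead differed by a log2 fold change of 0.29 (SE 0.52) from G90 to L0. The other members differed by -0.036 (MMP9) to -1.31 (MMP7) in that step. MMP2, the gelatinase of stromal cells, was at 24.4 and 4.25 CPM in the G90 glands, 7.31 and 2.92 CPM at L0, 23.5 and 409 CPM at L20, 166 and 5.13 CPM at PI2, and 138 and 182 CPM at PI7. Its stage mean was 5.12 ± 3.10 CPM at L0 and 160 ± 31.2 CPM at PI7 (SD, n = 2). Both PI7 glands were above both G90 and both L0 glands, while the L20 and PI2 pairs each spanned a wide range. In a whole-gland sum, fewer cells of a type and less RNA per cell cannot be told apart.

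MMP9, the gelatinase of myeloid cells, was at 1.69 and 0.357 CPM at G90, 0.214 and 1.16 CPM at L0, 29.8 and 16.9 CPM at L20, 2.50 and 7.43 CPM at PI2, and 189 and 27.9 CPM at PI7. Both L20 glands lay above all 4 earlier glands, the PI2 glands lay between, and PI7 replicate 1 stood highest. MMP7 was at 30.6 and 0.357 CPM at G90, 6.81 and 1.06 CPM at L0, 164 and 68.2 CPM at L20, 149 and 15.5 CPM at PI2, and 178 and 141 CPM at PI7. Its L20 and PI7 glands were all above the G90 and L0 glands, and PI2 replicate 2 overlapped them.

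MMP14, the membrane-bound activator, was at 62.4 and 30.2 CPM at G90, 35.6 and 46.0 CPM at L0, 40.9 and 130 CPM at L20, 109 and 86.7 CPM at PI2, and 108 and 139 CPM at PI7. All 4 involution glands lay above all 4 G90 and L0 glands, with L20 split between them. MMP27 was at 224 CPM in L20 replicate 2 and 45.7 CPM in PI2 replicate 1, and in the other 8 glands lay between 0.588 CPM (PI2 replicate 2) and 11.9 CPM (PI7 replicate 2). MMP8 rested on 215 UMIs over all 10 glands and was at most 3.35 CPM, in L20 replicate 2, with 0 UMIs in PI2 replicate 1, whose gene table does not list it.

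Of the inhibitors, TIMP1 was at 15.9 and 3.03 CPM at G90, 4.92 and 1.71 CPM at L0, 69.0 and 31.0 CPM at L20, 10.9 and 16.2 CPM at PI2, and 31.8 and 17.8 CPM at PI7. Its 2 L0 glands were below all 6 later glands, and the L20 and PI7 pairs overlapped. TIMP3 was at 130 and 20.4 CPM at G90, 31.9 and 50.8 CPM at L0, 78.2 and 282 CPM at L20, 294 and 86.7 CPM at PI2, and 435 and 326 CPM at PI7. Both PI7 glands exceeded all 8 other glands.

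**Figure D1:**
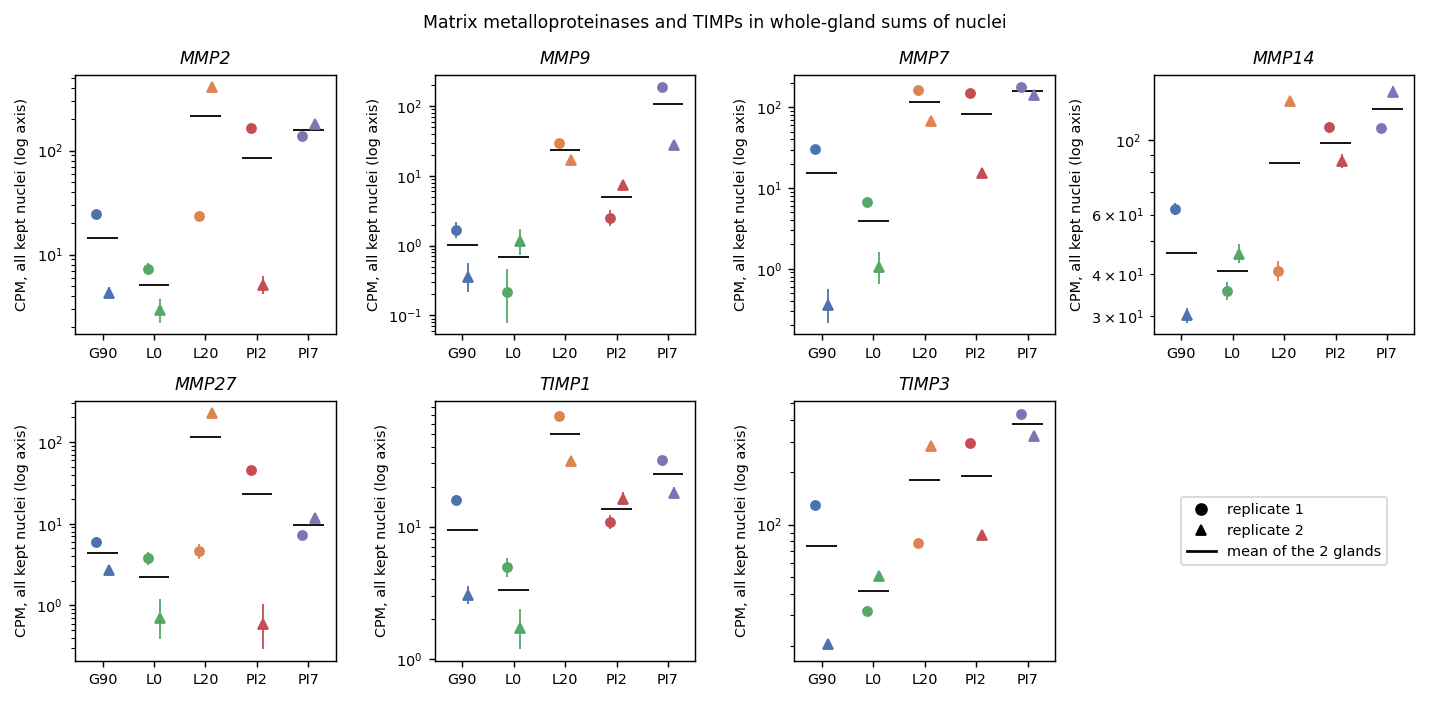
CPM of 7 members in the sum of all kept nuclei of each gland (log axis) against stage, with circles and triangles for the 2 glands of a stage, vertical bars for the exact 95% Poisson interval (counting error only) and a black line at the mean of both. The 2 glands of a stage differ widely for MMP2 and MMP27 at L20 (23.5 and 409 CPM, 4.61 and 224 CPM), and the PI7 pair is high for MMP2, MMP7, MMP9 and TIMP3.

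Stages were compared with edgeR's quasi-likelihood test across all genes, with 2 glands a stage and 1 shared estimate of spread, and a gene was called at a Benjamini-Hochberg adjusted p under 0.05 with an absolute log2 fold change over 1. None of the 8 members was called between G90 and L0, L0 and L20, L20 and PI2, or PI2 and PI7, nor between lactation (mean of L0 and L20) and involution (mean of PI2 and PI7). The background was 0% in each: 0 of 22695 genes were called in any of these 5 comparisons. At an unadjusted p under 0.05 the members numbered 5 of 8 from L0 to L20 (12.8% of all genes), 3 from lactation to involution (6.91%), 1 from PI2 to PI7 (2.04%), and 0 in the other comparisons (7.28% from G90 to L0 and 3.6% from L20 to PI2). DESeq2 on the same counts called 4 members from L0 to L20, where it called 1157 of the 22695 genes (5.1%). It called 0 members in the other 4 comparisons, with 1.73% of genes between G90 and L0, 0.0749% between L20 and PI2, 0.0573% between PI2 and PI7 and 0.842% between lactation and involution.

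From L0 to L20, MMP9 differed by a log2 fold change of 4.70 (SE 1.14, edgeR adjusted p = 0.177), MMP2 by 4.61, MMP7 by 4.52, TIMP1 by 3.54, MMP27 by 4.85, MMP8 by 2.56, TIMP3 by 1.44 and MMP14 by 0.40, and the smallest adjusted p of the 8 was 0.177. The 4 that DESeq2 called were MMP2, MMP7, MMP9 and TIMP1, with adjusted p of 0.00409, 0.00992, 0.000399 and 0.00113. With all glands the median over the 8 members was 4.03 on the log2 scale against a median of 0.24 over all genes tested. The list was chosen with earlier results of these data known, so its medians are a description only. Several of the members' differences, and hence this median, rest on L20 replicate 2, the gland with 29.9% fibroblast nuclei against 6.63% in L20 replicate 1. Without it MMP2 was at 1.99, MMP27 at 0.83 and TIMP3 at 0.71, and MMP14 and MMP8 changed sign, to -0.21 and -0.49, while MMP9 was at 5.25, MMP7 at 5.17 and TIMP1 at 4.17. From lactation to involution the differences were 2.27 for MMP9, 2.17 for MMP7, 1.80 for MMP2, 1.55 for TIMP3, 0.84 for MMP14, 0.28 for TIMP1, -0.10 for MMP27 and -0.73 for MMP8, with a smallest edgeR adjusted p of 0.617. Their median was 1.19 against 0.03 over all genes. The MMP9 level at PI7 was 108 ± 114 CPM (SD, n = 2), with PI7 replicate 1 far above replicate 2. MMP2 was at -0.16 without PI2 replicate 1, and leaving out 1 gland also changed the sign of MMP27, MMP8 and TIMP1.

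Sums per sow were compared between 9 classes in 1 edgeR fit with the sow as block, each class against the mean of the other 8, and MMP8 was too low to be tested. Over the 9 classes and 7 tested members, 29 of 63 comparisons passed, where 9.83% to 23.7% of 11801 genes were called in a class in either direction. Class differences of nuclei from the same 10 glands are within-sow differences.

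**Figure D2:**
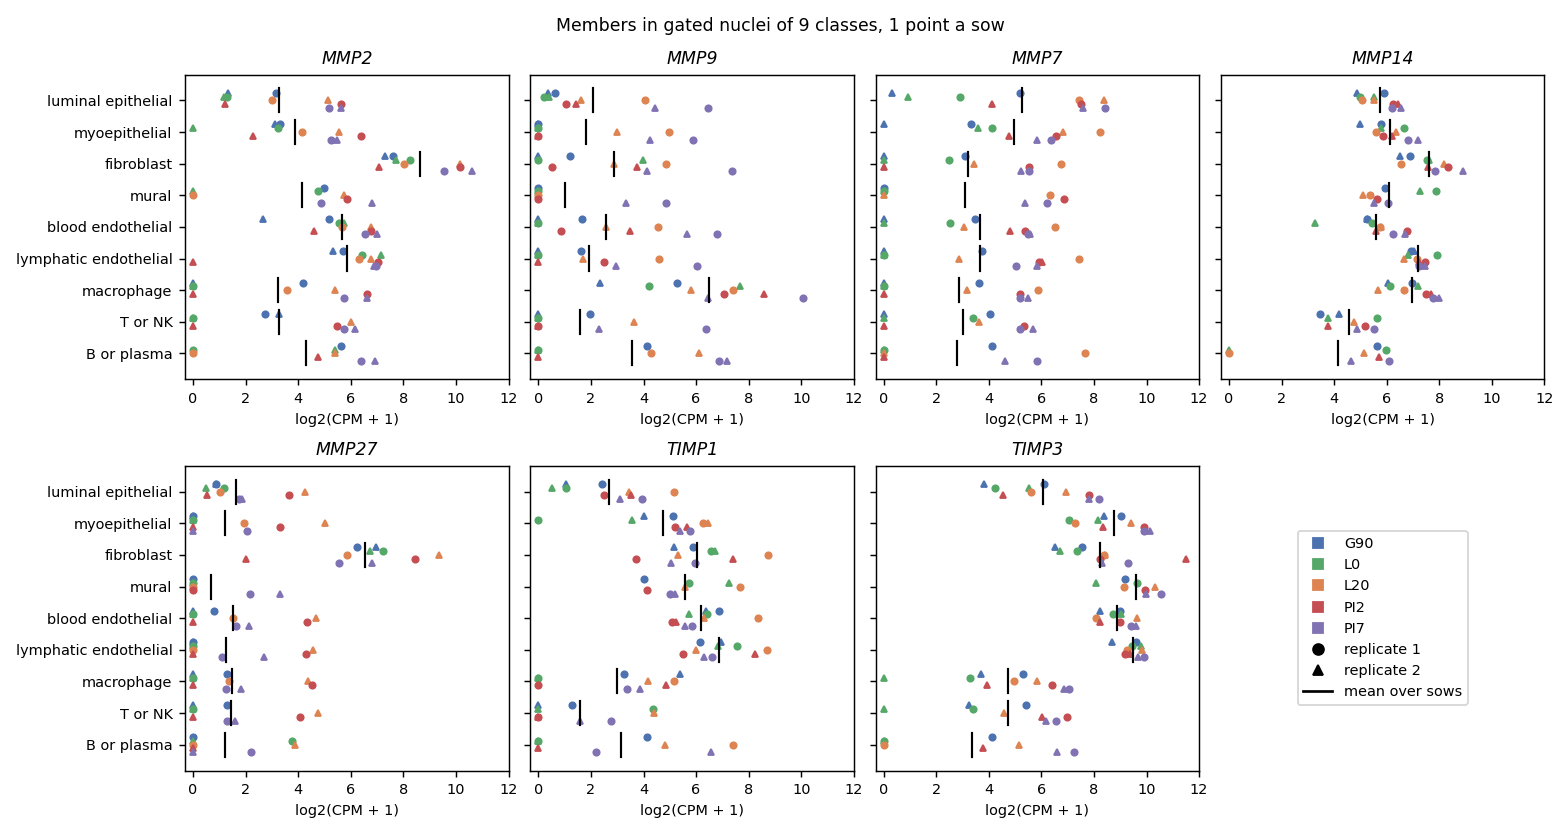
log2(CPM + 1) of 7 members in the gated nuclei of 9 classes, 1 point for each sow with at least 20 nuclei of the class, coloured by stage and shaped by replicate, with a black line at the mean over sows. MMP2 and MMP27 are highest in fibroblasts, MMP9 in macrophages and MMP7 in luminal and myoepithelial nuclei, while TIMP3 is above 6 on this scale in every sow drawn for mural, endothelial, myoepithelial and fibroblast nuclei.

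Fibroblast nuclei were higher than the mean of the other classes in MMP2, MMP27, MMP14, TIMP1 and TIMP3, 5 of the 7 tested members, where 8.9% of 11801 genes were called higher. MMP2 ranged from 132 to 1561 CPM over the 10 sows with a median of 282 CPM, and differed by 4.16 on the log2 scale (SE 0.17, edgeR adjusted p = 3.05e-38). The next class in order, lymphatic endothelium, ran from 0 to 141 CPM and lay below fibroblasts in 10 of 10 sows, by 2.79 ± 1.77 on the log2(CPM + 1) scale (SD, n = 10, exact sign-flip permutation test, two-sided, p = 0.00195, adjusted p = 0.025 over 64 neighbour pairs). Fibroblasts carried 75.7% of the 31249 MMP2 UMIs of the glands.

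MMP27 in fibroblasts ran from 3.08 to 645 CPM with a median of 108 CPM, differed from the other classes by 5.55 (SE 0.18, edgeR adjusted p = 3.83e-45), and carried 87.6% of its UMIs. Luminal nuclei, the next class, ran from 0.389 to 18.1 CPM, below fibroblasts in 10 of 10 sows (exact permutation test, adjusted p = 0.025). MMP14 ran from 89.9 to 482 CPM in fibroblasts (median 191 CPM, difference 1.77, SE 0.14). TIMP1 differed by 1.49 (SE 0.26) and TIMP3 by 1.36 (SE 0.27), but without PI2 replicate 2 TIMP3 was at 0.58, under the fold limit. For MMP14, lymphatic endothelium at 99.9 to 241 CPM and macrophages at 50.02 to 254 CPM followed, and these 3 neighbours did not differ beyond their spread over sows (exact permutation test, adjusted p = 0.562 and 0.972).

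Macrophage nuclei were higher in MMP9 and MMP14, 2 of the 7, where 10.4% of genes were called higher, and lower in TIMP1 and TIMP3 (9.47% of genes called lower). MMP9 ran from 4.04 to 1069 CPM with a median of 110 CPM and differed by 4.58 (SE 0.28, edgeR adjusted p = 4.92e-26). By gland it was at 37.4 and 4.04 CPM at G90, 17.3 and 203 CPM at L0, 167 and 54.8 CPM at L20, 133 and 384 CPM at PI2, and 1069 and 87.5 CPM at PI7, so that the glands of every stage overlapped with those of another. The next class, B or plasma cells, lay below macrophages in 6 of 8 sows (exact permutation test, adjusted p = 0.222). With 8 sows this test cannot give an unadjusted p under 0.0078. Under a stricter gate, B or plasma nuclei were too few to compare. There fibroblast nuclei lay below macrophages in 10 of 10 sows (exact permutation test, adjusted p = 0.0234). Macrophages were 40.6% and luminal nuclei 21.1% of the MMP9 UMIs, and they were 4.20% and 55.8% of all kept nuclei. In PI7 replicate 1, which held 7329 of the 9525 MMP9 UMIs, fibroblast nuclei were at 165 CPM, blood endothelial nuclei at 109 CPM and luminal nuclei at 85.5 CPM, against at most 27.8, 49.2 and 20.7 CPM in the other 9 glands. The part of free RNA in these levels was not tested.

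Luminal epithelial nuclei were higher in MMP7 alone, 1 of the 7, where 8.22% of genes were called higher, and lower in MMP2, MMP9, TIMP1 and TIMP3 (15.5% of genes called lower). Lower here means below the mean of the other classes, not lowest. By mean log2(CPM + 1) luminal nuclei ranked 5 of the 9 classes in MMP9, 6 in TIMP3, 7 in MMP2 and 8 in TIMP1. MMP7 ran from 0.261 to 340 CPM with a median of 104 CPM, differed by 2.30 (SE 0.22, edgeR adjusted p = 1.04e-15), and 81.0% of its 21301 UMIs were luminal. Luminal nuclei were 55.8% of all kept nuclei and held 198594605 UMIs of all genes, the most of any class. Pooled over the glands, MMP7 was at 86.9 CPM in luminal, 74.8 CPM in myoepithelial and 69.3 CPM in ungated nuclei. By gland the luminal level was 35.8 and 0.261 CPM at G90, 6.46 and 0.889 CPM at L0, 171 and 332 CPM at L20, 183 and 16.3 CPM at PI2, and 340 and 190 CPM at PI7, with both L20 and both PI7 glands above the 4 G90 and L0 glands. Myoepithelial nuclei, at 0 to 295 CPM, were next and did not differ from luminal nuclei beyond the spread (exact permutation test, 6 of 10 sows lower by a mean of 0.32 on the log2 scale, adjusted p = 1). Under a stricter gate they were lower in 7 of 9 sows, by 2.04 (exact permutation test, adjusted p = 0.159), and with the main gate they carried 682 to 1224 CPM of the luminal list. Myoepithelial nuclei were higher than the mean of the other classes in TIMP3 (1.45, SE 0.25, with 7.36% of genes called higher) and lower in MMP2 (8.28% called lower). In MMP2 they ranked 6 of the 9 classes.

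The highest mean of TIMP1 was in lymphatic endothelial nuclei and that of TIMP3 in mural nuclei. In the order of TIMP1, blood endothelium lay below lymphatic endothelium in 8 of 10 sows (exact permutation test, adjusted p = 0.222). Fibroblasts lay below blood endothelium in 5 of 10 sows. These neighbours did not differ beyond their spread. Lymphatic endothelial nuclei were higher in TIMP1, TIMP3, MMP14 and MMP2, 4 of the 7, where 8.24% of genes were called higher. TIMP1 ran from 44.9 to 412 CPM there with a median of 105 CPM (difference 2.25, SE 0.28, edgeR adjusted p = 1.09e-10), and TIMP3 from 407 to 968 CPM with a median of 742 CPM (difference 2.23, SE 0.24, edgeR adjusted p = 5.86e-13). The MMP2 difference of 1.01 is just past the fold limit. Blood endothelial nuclei were higher in TIMP1 (1.74, SE 0.26) and TIMP3 (1.68, SE 0.24) and in no other member (8.21% of genes called higher).

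Mural nuclei, the pericytes and smooth muscle of vessel walls, had the highest mean TIMP3 level, 867.9 ± 398 CPM (SD, n = 8), with a difference of 2.12 (SE 0.28, edgeR adjusted p = 1.68e-09; 6.79% of genes called higher). They were called lower in MMP9 (-2.24; 4.12% of genes called lower), where the median over sows was 0 CPM. In the order of TIMP3, mural and lymphatic nuclei did not differ beyond their spread (exact permutation test, adjusted p = 1), lymphatic exceeded blood endothelium in 10 of 10 sows (adjusted p = 0.025), fibroblasts exceeded luminal nuclei in 10 of 10 and luminal nuclei exceeded macrophages in 10 of 10. Both endothelial gates carried markers of the other. The blood endothelial list summed to 2185 to 3804 CPM in lymphatic nuclei, and the lymphatic list to 78.8 to 2171 CPM in blood endothelial nuclei. T or NK nuclei were lower in TIMP1, TIMP3 and MMP14, 3 of the 7 (11.2% of genes called lower), and B or plasma nuclei in TIMP3 and MMP14 (3.85% called lower). TIMP1 in L20 replicate 1 was the highest of all glands in fibroblast (430 CPM), blood endothelial (327 CPM), lymphatic (412 CPM), mural (201 CPM) and luminal nuclei (34.5 CPM).

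Inside fibroblast nuclei the glands fell far apart. MMP2 was at 191 and 157 CPM at G90, 304 and 209 CPM at L0, 259 and 1139 CPM at L20, 1127 and 132 CPM at PI2, and 747 and 1561 CPM at PI7. L20 replicate 2, PI2 replicate 1 and both PI7 glands were at 747 CPM or more and the other 6 glands at 304 CPM or less. The same 4 glands had the highest MMP2 in luminal nuclei, 34.1 to 48.3 CPM against 1.28 to 7.93 CPM elsewhere. The fibroblast list in luminal nuclei was at 215 to 347 CPM in those 4 glands, at 261 and 251 CPM in G90 replicate 1 and L20 replicate 1, and at 41.8 to 82.9 CPM in the other 4, and the part of fibroblast RNA in the luminal MMP2 level was not tested.

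MMP27 in fibroblasts was at 75.3 and 123 CPM at G90, 150 and 104 CPM at L0, 57.4 and 645 CPM at L20, 349 and 3.08 CPM at PI2, and 45.8 and 111 CPM at PI7. L20 replicate 2 and PI2 replicate 1 stood above all others, and PI2 replicate 2, with 1 UMI in 156 fibroblast nuclei, stood below. TIMP3 was at 185 and 91.2 CPM at G90, 161 and 104 CPM at L0, 329 and 342 CPM at L20, 300 and 2883 CPM at PI2, and 620 and 313 CPM at PI7. PI2 replicate 2 was thus the highest gland in TIMP3 and the lowest in MMP2 and MMP27. In those 156 nuclei the fibroblast list summed to 8667 CPM and the mural list to 520 CPM, both within the range of the other glands (7635 to 16585 CPM and 243 to 857 CPM). The gate itself picks nuclei with more fibroblast markers than others, so these sums cannot show what the nuclei were. The part of RNA from other cells in them was not tested.

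**Figure D3:**
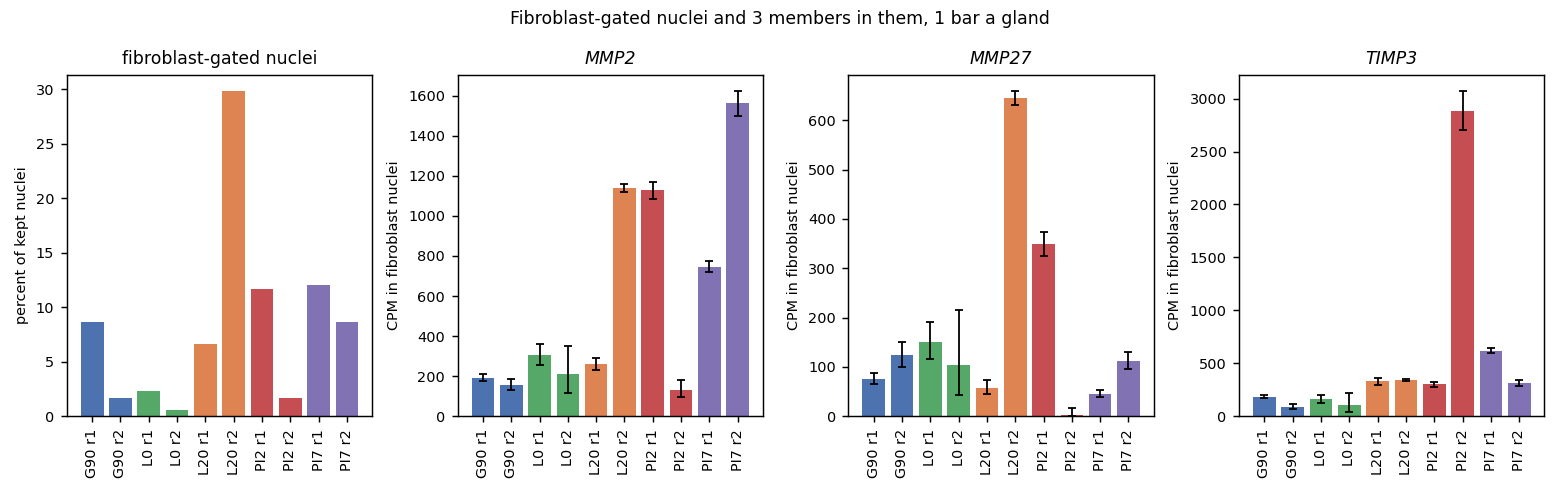
Percent of kept nuclei gated as fibroblasts, and CPM of MMP2, MMP27 and TIMP3 in them, 1 bar a gland (r1 and r2 for the 2 glands of a stage), with exact 95% Poisson intervals that cover counting error only. MMP27 peaks in L20 replicate 2 (645 CPM) and PI2 replicate 1 (349 CPM), and TIMP3 in PI2 replicate 2 (2883 CPM).

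Within fibroblasts no member was called by edgeR between lactation and involution (0 of 7 tested, 0 of 13377 genes or 0%, 1 member and 4.85% of genes at an unadjusted p under 0.05, 0 members and 0.142% of genes by DESeq2). The differences were 0.89 (SE 0.60) for MMP2, 0.59 (SE 0.42) for MMP14, -0.97 (SE 0.84) for MMP27, -1.33 (SE 0.76) for TIMP1 and 1.92 (SE 0.59, edgeR adjusted p = 0.764) for TIMP3. Without PI2 replicate 1 MMP2 was at -0.17, without L20 replicate 2 MMP27 was at 0.44, without L20 replicate 1 TIMP1 was at -0.047, and without PI2 replicate 2 TIMP3 was at 0.70.

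The same comparison called none of the tested members in luminal (0 of 7; 0% of 20129 genes), blood endothelial (0 of 7; 0% of 11920), macrophage (0 of 6; 0% of 9582) or mural nuclei (0 of 5; 0.321% of 5304). At an unadjusted p under 0.05 they numbered 4, 3, 4 and 1, against 10.6%, 4.93%, 5.9% and 6.41% of all genes. DESeq2 called 2 in luminal nuclei, MMP2 and MMP9, with 2.39% of all genes, and 0 members in the other 3 classes (0.159%, 0.0313% and 0.339% of genes). In luminal nuclei the macrophage list was at 39.9 and 25.4 CPM at L0, 156 and 197 CPM at L20, 61.6 and 47.4 CPM at PI2, and 217 and 188 CPM at PI7. The part of RNA from macrophages or fibroblasts in these 2 calls was not tested. In luminal nuclei MMP7 differed by 2.21 (SE 1.07, edgeR adjusted p = 0.499), and in macrophages MMP9 by 1.88 (SE 0.81), MMP14 by 1.24 (SE 0.37) and TIMP3 by 2.27 (SE 0.72), the last 2 with an edgeR adjusted p of 0.812. In blood endothelial nuclei TIMP1 differed in the other direction, by -1.57 (SE 0.45, edgeR adjusted p = 0.870). Between adjacent stages edgeR called no member in any of these 5 classes. The genes called were 0.00497% in luminal nuclei from G90 to L0, and in mural nuclei 0.132% in the same step, 0.321% between L0 and L20 and 0.132% between L20 and PI2, with 0% elsewhere.

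Of 45 other named genes of matrix proteolysis found in the tables (further MMPs, inhibitors, ADAM and ADAMTS proteases, and the plasmin system), 33 could be tested between classes. In fibroblasts 13 were higher and 0 lower (8.9% and 3.04% of all genes), led by ADAM12, a membrane metalloprotease-disintegrin (4.32), ADAMTS5, an aggrecanase (4.11), and MMP23B (3.70). In blood endothelium 12 were higher and 3 lower (8.21% and 1.75% of all genes), with MMP28 (3.98) and the tissue plasminogen activator PLAT (3.78) among them, and in lymphatic endothelium 12 were higher and 3 lower (8.24% and 5.2%), with MMP17 (3.93) and the inhibitor TIMP4 (3.67) among them. In macrophages 7 were higher and 13 lower (10.4% and 9.47%), led by the cysteine protease inhibitor CST3 (3.88), the urokinase receptor PLAUR (3.09) and urokinase PLAU (3.07). In mural nuclei 10 were higher and 2 lower (6.79% and 4.12%), led by ADAMTS12 (3.10), the membrane-anchored MMP inhibitor RECK (2.60) and ADAMTS4 (2.36). Luminal nuclei had 1 higher and 17 lower (8.22% and 15.5%), with ADAM19 (-2.97), ADAMTS12 (-2.81) and RECK (-2.70) the farthest. Between stages, 0 of 43 tested were called by edgeR in any of the 5 whole-gland comparisons, with 17 at an unadjusted p under 0.05 from L0 to L20 and 10 from lactation to involution (12.8% and 6.91% of all genes).

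Over 85 sums per sow and class, the genes most like each member in log2(CPM + 1) were described by Pearson's r among 10245 genes with a mean of at least 10 CPM. The sums share sows, libraries and depth, so r is a description. MMP2 was most like the transcription factor MEIS1 (r = 0.78), the collagen chain COL1A1 (r = 0.77) and ANGPTL2 (r = 0.73). MMP27 was most like CPXM1 (r = 0.83), the proteoglycan decorin DCN (r = 0.79) and the growth factor FGF10 (r = 0.78). COL1A1 and DCN are on the fibroblast list of the gate. MMP7 was most like SCGN (r = 0.80) and the keratins KRT15 (r = 0.77) and KRT8 (r = 0.74). MMP9 was most like CPSF6 (r = 0.79), the myeloid adaptor TYROBP (r = 0.78) and the receptor CSF1R (r = 0.77, on the macrophage list), and MMP14 like FMNL2, SERPING1 and SBF2 (r = 0.70, 0.66 and 0.66). TIMP1 was most like LTBP1, FSTL1 and TLE1 (r = 0.74, 0.71 and 0.71), and TIMP3 like the dystrophin-complex member SSPN, the laminin chain LAMC1 and CNN3 (each r = 0.83). Between members the highest r was 0.64 for MMP2 with MMP27, followed by 0.61 for TIMP1 with TIMP3.

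The sections place the members in tissue, with 1 section a stage and hence no test between stages. Intervals below are exact 95% Poisson or binomial ones and cover counting error only. MMP2 was at 77.9 CPM in the G90 section and 946 CPM in the PI2 section, a ratio of 12.1 (11.7 to 12.6). MMP7 was at 15.8 and 193 CPM (ratio 12.2, 11.2 to 13.3), MMP9 at 10.1 and 70.7 CPM (ratio 7.01, 6.28 to 7.83) and MMP14 at 54.3 and 278 CPM (ratio 5.12, 4.87 to 5.38). TIMP3 was at 115 and 345 CPM (ratio 3.003, 2.89 to 3.12), whereas TIMP1 was at 74.0 and 83.4 CPM (ratio 1.13, 1.06 to 1.199). MMP27 rested on 142 and 100 UMIs (3.32 and 5.58 CPM), and MMP8 on 2 and 1.

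Spots were then ranked by the share of their UMIs from a marker list, and the 25% of spots with the highest share compared with the 25% with the lowest. In the PI2 section MMP2 was at 1856 CPM in the spots richest in fibroblast markers and 610 CPM in the poorest (ratio 3.04, 2.90 to 3.19), MMP14 at 502 and 201 CPM (ratio 2.50, 2.29 to 2.73), and MMP27 at 23.6 and 2.36 CPM (ratio 10.0, 5.48 to 19.1, on 40 and 16 UMIs). MMP2 rested on 3149 UMIs in the richest and 4140 in the poorest spots, and MMP14 on 852 and 1362. In G90 the MMP2 counts were 783 and 821. The fibroblast-rich spots thus held fewer UMIs in all, and these ratios compare shares of UMIs, not amounts per spot. In the G90 section the ratios were 2.50 (2.26 to 2.76) for MMP2, 6.99 (4.31 to 11.7) for MMP27 and 0.851 (0.739 to 0.977) for MMP14, so that MMP14 was not higher in fibroblast-rich spots there. MMP7 followed the luminal list, at 589 against 27.1 CPM in PI2 (ratio 21.7, 16.8 to 28.5) and 33.1 against 7.10 CPM in G90 (ratio 4.67, 3.46 to 6.43). By the blood endothelial list, TIMP1 had ratios of 1.94 (1.75 to 2.16) in G90 and 2.42 (2.03 to 2.91) in PI2, and TIMP3 of 1.81 (1.67 to 1.98) and 1.501 (1.38 to 1.63).

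**Figure D4:**
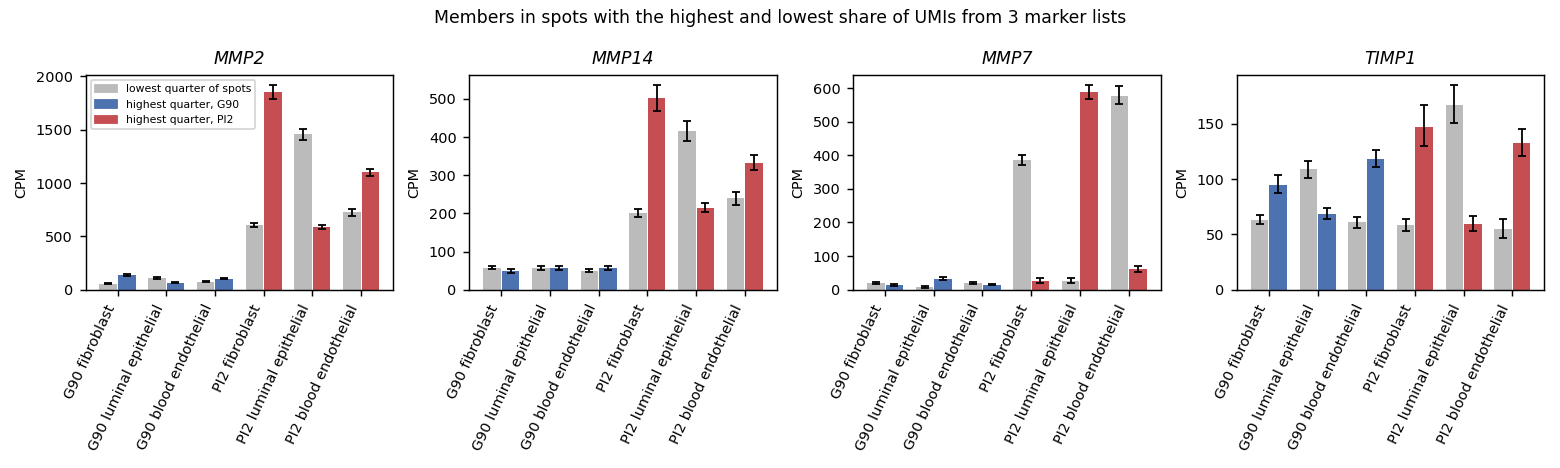
CPM of 4 members in the 25% of spots with the lowest (grey) and the 25% with the highest (coloured) share of UMIs from the fibroblast, luminal epithelial or blood endothelial marker list, in the G90 and PI2 sections, with exact 95% Poisson intervals. In PI2, MMP2 is at 1856 CPM in fibroblast-rich spots and MMP7 at 589 CPM in luminal-rich spots, against 610 and 27.1 CPM in the spots poorest in the same markers.

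MMP8, the neutrophil collagenase, had higher CPM in milk cells than its highest gland level of 3.35 CPM. The milk values come from whole cells and the gland values from nuclei, and 38 gland nuclei were gated as neutrophils. It was at 187 CPM (184 to 190) in the L0 library and 58.0 CPM (55.8 to 60.4) in the L20 library, a ratio of 0.310 (0.297 to 0.324). Cells with neutrophil markers, 11332 of 17571 at L0 and 7554 of 14514 at L20, held 94.98% and 96.5% of its UMIs, at 905 and 225 CPM. Luminal cells of the same libraries were at 10.5 and 0.903 CPM, and the part of neutrophil RNA in these levels was not tested. With 1 library a stage, no difference between stages was tested.

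MMP9 was at 40.9 CPM at L0 and 89.0 CPM at L20 (ratio 2.18, 2.08 to 2.28), and its UMIs were split differently between classes in the 2 libraries. The milk cells gated as macrophages carried much neutrophil-list signal, 6134 CPM beside 6785 CPM of the macrophage list at L0 and 7216 CPM beside 4100 CPM at L20, whereas neutrophil-marker cells were at 18701 to 32013 CPM and 613 to 974 CPM of these lists. They are called macrophage-marker cells here, and the part of neutrophil RNA in their levels was not tested. At L0 neutrophil-marker cells held 67.9% of its UMIs (141 CPM) and macrophage-marker cells 23.3% (179 CPM), and at L20 macrophage-marker cells held 87.5% (216 CPM) and neutrophil-marker cells 8.97% (32.0 CPM). MMP14 was at 16.8 and 67.3 CPM (ratio 3.998, 3.75 to 4.27), with 66.3% of UMIs in luminal cells at L0 and 71.5% in macrophage-marker cells at L20. Such shares also follow the RNA held by each class. Over both libraries luminal cells held 63631802 UMIs of all genes and macrophage-marker cells 19824585. Pooled MMP14 was at 15.2 CPM in luminal cells and 120 CPM in macrophage-marker cells. Macrophage-marker cells were 689 of the kept cells at L0 and 1691 at L20, with MMP14 at 72.4 and 133 CPM in them.

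TIMP1 was at 329 CPM at L0 and 6353 CPM at L20 (ratio 19.3, 19.1 to 19.5). In macrophage-marker cells it was at 1609 and 8888 CPM, in neutrophil-marker cells at 827 and 7498 CPM, in luminal cells at 22.1 and 102 CPM, and in cells no list claimed at 1054 and 9559 CPM. MMP7 was at 11.03 and 2.63 CPM, with 96.4% and 57.5% of UMIs in luminal cells (15.7 and 7.34 CPM). TIMP3 was at 3.15 and 5.402 CPM, and MMP2 and MMP27 rested on 38 and 18 UMIs at L0 and 62 and 6 at L20, and 6 L0 cells were gated as fibroblasts.

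**Figure D5:**
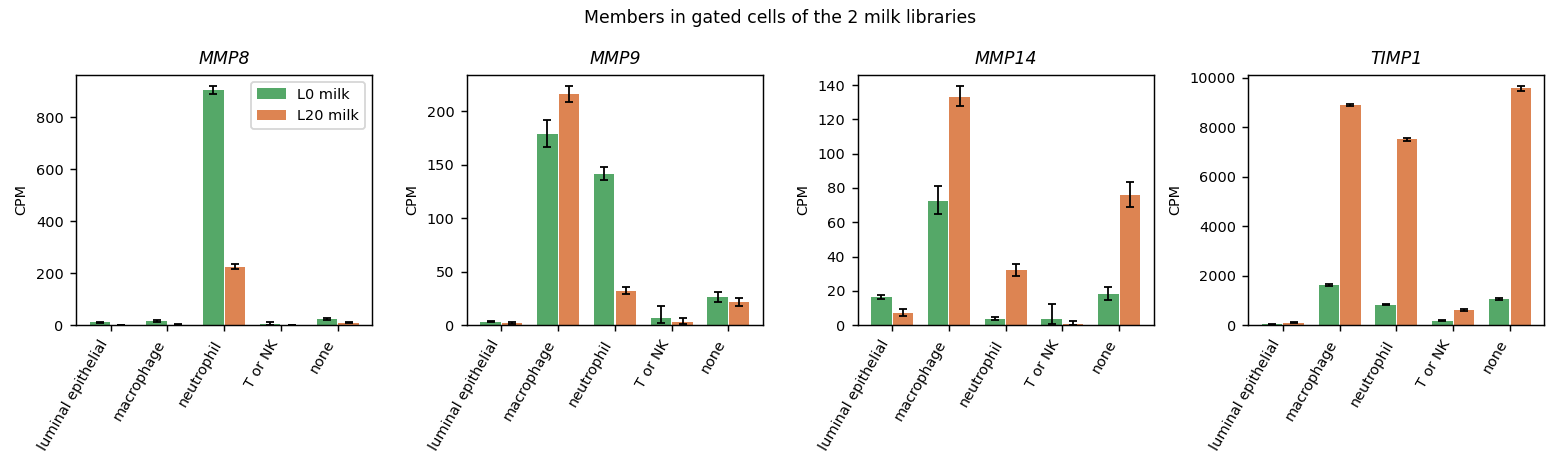
CPM of 4 members in gated cells of the L0 and L20 milk libraries (1 each), by class, with exact 95% Poisson intervals that cover counting error only. MMP8 is highest in neutrophil-marker cells (905 and 225 CPM), and TIMP1 stands higher at L20 than at L0 in cells gated as macrophages (8888 and 1609 CPM), which also carry 6134 to 7216 CPM of the neutrophil list.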

How the data were processed

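Counts were UMI counts per gene and barcode as the authors deposited them, not normalized, 1 library a file. Nuclei and milk cells were prepared as GEXSCOPE libraries and counted with CeleScope on Sscrofa11.1, and the sections with Space Ranger (1.2.0 per the labels), while Seurat 4.3.0 is named in the submitters' processing notes. The gene annotation release was not given. The members, gene lists, tests and alternatives were chosen with earlier results of these data known.

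Barcodes under 300 genes or over 25% mitochondrial UMIs were dropped. No doublet caller was run. A nucleus joined a class when it held at least 2 different markers of its list and more than of any other list. All 10 listed markers were found for 7 classes, 9 for lymphatic endothelium and adipocytes, 8 for myoepithelium and 6 for neutrophils. Counts were summed per sow, and per sow and class with at least 20 nuclei. The sums were tested with edgeR 4.0.16 (TMM factors, filterByExpr, quasi-likelihood test, R 4.3.3), with all stages in 1 fit, and Benjamini-Hochberg adjustment over all genes tested. Classes measured in at least 6 sows were compared with the sow as block. Neighbouring classes in the order of a member's levels were compared by an exact sign-flip permutation test on log2(CPM + 1) with scipy 1.17.1. The script was tested on simulated data. Intervals are 95% exact Poisson or binomial ones, where CPM is a count scaled to a total of 1e+06 in that sum, and cover counting error only.

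The paper states that sows were euthanized for collection, so no sow recurs between stages. The correlation of deviations between glands of the same replicate number was -0.49 to 0.37 over 10 pairs of stages. With 2 glands a stage it cannot show whether replicate numbers share another factor. The labels do not say that the 2 glands of a stage came from separate litters or days, so p-values measure the spread between these glands. Alternatives were DESeq2 1.42.0, no filter on low counts, the compared stages alone, a replicate block, stricter filters and gates, and each gland left out. All members are named, with the 3 other genes of matrix proteolysis called with the largest change in a class and the 3 genes most like each member. Some items that this rule names are not reported here. TIMP2 was not found by symbol. The symbols of MMP1, MMP10, MMP21, MMP26, LRP1, BSG and CTSG were not found either.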

Additional observations from a re-analysis of the deposited data

How the results depend on the processing

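With 2 glands a stage, calls between stages moved with the setting. From L0 to L20 the whole glands gave 0 called members by edgeR (0% of all genes), 4 by DESeq2 (5.1%), 3 with no filter on low counts (0.937%), and 2 with L20 replicate 2 and PI2 replicate 2 both left out (0.648%). That alternative was chosen after seeing the data, and it drops the lactation gland highest and the involution gland lowest in MMP2, so its calls support nothing. From lactation to involution it gave 1 in whole glands (0.778%), 2 in fibroblasts (1.76%), 1 in luminal (2.23%) and 1 in blood endothelial nuclei (1.89%). No filter gave 1 in fibroblasts (0.369%) and 1 in macrophages (0.134%), and DESeq2 gave 2 in luminal nuclei (2.39%). With a replicate block, 0 members were called in each of the 5 whole-gland comparisons and within each of the 5 classes from lactation to involution, with 0% of all genes except 0.132% in mural nuclei. The causes were not tested.

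Among classes, called members went from 5 to 3 in luminal nuclei with no filter (24.4% of all genes), from 3 to 5 in T or NK nuclei with a stricter gate (23.9%), from 4 to 2 in macrophages (19.8%), 2 to 1 in mural (9.35%) and 2 to 1 in myoepithelial nuclei (14.2%) with no sow as block, and to 1 in mural nuclei by DESeq2 (11.2%). Leaving out 1 gland gave 2 to 4 in macrophages (2 without L20 replicate 1; 18.9% to 20.8% of all genes) and 1 to 3 in mural nuclei (1 without PI7 replicate 1; 9.55% to 12.8%). Without PI2 replicate 2, TIMP3 in fibroblasts was at 0.58, under the fold limit. The stricter gate put 11 of 48 neighbour pairs past the threshold, where the main gate put 5 of 64; the pairs and their adjustment differ, since mural and B or plasma nuclei were left out. Of the called class fold changes recomputed under each alternative, 404 values kept their call, 27 lost it and none changed sign. Only members called in the main fit were followed, and the alternatives reuse most of the same sums. How often any called gene kept its call was not computed, so these counts say nothing particular to the members.

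Some fold changes changed sign. From L0 to L20, leaving out 1 gland gave MMP14 -0.21 to 0.94 and MMP8 -0.49 to 3.55, and leaving out both gave -0.21 and -0.49. From lactation to involution the single-gland ranges were -0.16 to 3.11 for MMP2, -2.67 to 1.91 for MMP27, -3.87 to 0.79 for MMP8 and -0.042 to 0.84 for TIMP1, and leaving out both gave 2.40 for MMP27 and -0.24 for TIMP1. In MMP27, the sign changed without L0 replicate 1 (0.73), L20 replicate 2 (1.91), PI2 replicate 2 (0.40) or PI7 replicate 1 (0.16). Within fibroblasts the ranges were -0.17 to 1.70 for MMP2 and -3.83 to 0.44 for MMP27, which was 0.81 with both left out.

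In milk, keeping cells with 500 genes or more and no more than 10% mitochondrial UMIs gave L20 to L0 ratios of 0.178 for MMP8, 2.73 for MMP9, 4.43 for MMP14 and 23.0 for TIMP1, and no filter gave 18.5 for TIMP1. The 10% of spots highest and lowest in a list gave, in G90, 4.27 for MMP2 and 28.8 for MMP27 by the fibroblast list and 2.36 for TIMP1 and 2.38 for TIMP3 by the blood endothelial list. In PI2 they gave 6.98 for MMP2, 3.97 for MMP14 and 38.5 for MMP27, 50.1 for MMP7 by the luminal list, and 4.55 for TIMP1 and 1.37 for TIMP3. Under the stricter gate, mural and B or plasma nuclei were too few to compare.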

Other observations

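The few MMP8 UMIs of the glands were not spread evenly. L20 replicate 2 held 132 of the 215, and 96 of these were in its fibroblast nuclei (7.65 CPM), and 38 nuclei of all 10 glands were gated as neutrophils. The same fibroblast nuclei held the highest MMP27 level of any gland, 645 CPM, and MMP27 is the neighbour of MMP8 on the same strand, 4205 bases away. The part of reads from one gene counted to the other was not tested.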
